A study of Mus musculus with 10 samples.

Results

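The 38 genes described here encode proteins of the centromere, the kinetochore and the spindle checkpoint, together with cyclins, kinases and an activator of the anaphase-promoting complex that drive mitosis. They were listed by name, with no cut on their values, though earlier results of these data were known when they were chosen. Each is the Ensembl gene that carries the listed symbol in GENCODE vM21, and all 38 were found among the 55487 genes of the expression tables. The values are RNA-seq levels in E14, an established mouse embryonic stem cell line, grown with 15% serum, LIF, 3 µM of a GSK inhibitor and 1 µM of a MEK1/2 inhibitor. These conditions were shared by every sample, and the labels give no genetic change or cell cycle treatment. The series holds 10 samples, of which 3 are replicates of RNA-seq on total RNA depleted of ribosomal RNA. The other 7 map R-loops by MapR and BisMapR and were not analysed here. There is thus 1 group, and the results are levels, their order, and their spread over 3 libraries.

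The centromere is the chromosome region on which the kinetochore is built, and it is marked by nucleosomes that carry the histone H3 variant CENP-A. On that chromatin sits the constitutive centromere-associated network (CCAN), a set of CENP proteins that links it to the NDC80 complex, which binds microtubules. Kinetochores without microtubules activate the spindle checkpoint, which holds back the anaphase-promoting complex until every chromosome is attached. Transcripts of many of these genes peak in the G2 and M phases, and embryonic stem cells divide rapidly. In bulk RNA a higher share of cells in a phase and more RNA per cell cannot be told apart.

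The 3 libraries held between 5787357 and 11420425 estimated counts, and replicate 1 was the deepest. The stated cell type was checked against its markers. All 10 stem cell identity genes were expressed, with Dppa5a, Nanog and Pou5f1 the highest at 554 ± 78, 183 ± 30 and 149 ± 22 TPM (SD, n = 3). TPM is a transcript abundance per length, expressed as a share of all transcripts of its library. Of 8 fibroblast genes, 4 had no count in any library, and the summed TPM of the list ran from 1.24 to 3.38, nearly all of it Thy1. None of 10 genes of differentiated lineages reached a mean of 1 TPM, and their summed TPM ran from 1.23 to 2.09. Eomes was the highest, just under that level at 0.95 ± 0.11 TPM (SD, n = 3), with 78, 62 and 52 counts. Gata4 was next at 0.45 ± 0.19 TPM (SD, n = 3), with 47, 19 and 12 counts. The part of such cells in the results was not tested.

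All 38 genes had a mean of at least 1 TPM, a level that 19.8% of all genes and 44.1% of protein-coding genes reached. The lowest count of any of them in any library was 59, for Cenpw in replicate 3, well above the floor of 3 counts. A mean of at least 5 TPM was reached by 33 of the 38, against 54.8% of expressed protein-coding genes, and at least 10 TPM by 24, against 31.7%. Their median log2(TPM + 1) was 3.94, 3.58 and 3.40 in replicates 1, 2 and 3, a mean of 3.64 ± 0.28 (SD, n = 3). Over all expressed protein-coding genes it was 2.72 ± 0.29 (SD, n = 3), and over all 55487 genes 0. Together the 38 held 0.366% ± 0.009 (SD, n = 3) of estimated counts. Mean levels spanned 42.4-fold, from Cenpw at 2.25 ± 0.38 to Ccnb1 at 95.3 ± 8.1 TPM (SD, n = 3). In the order of expressed protein-coding genes those levels stood at percentiles 19.2 and 97.6. Ccnb1 and Bub1, the 2 highest, overlapped: Bub1 was above Ccnb1 in replicate 1 and below it in the others.

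**Figure D1:**
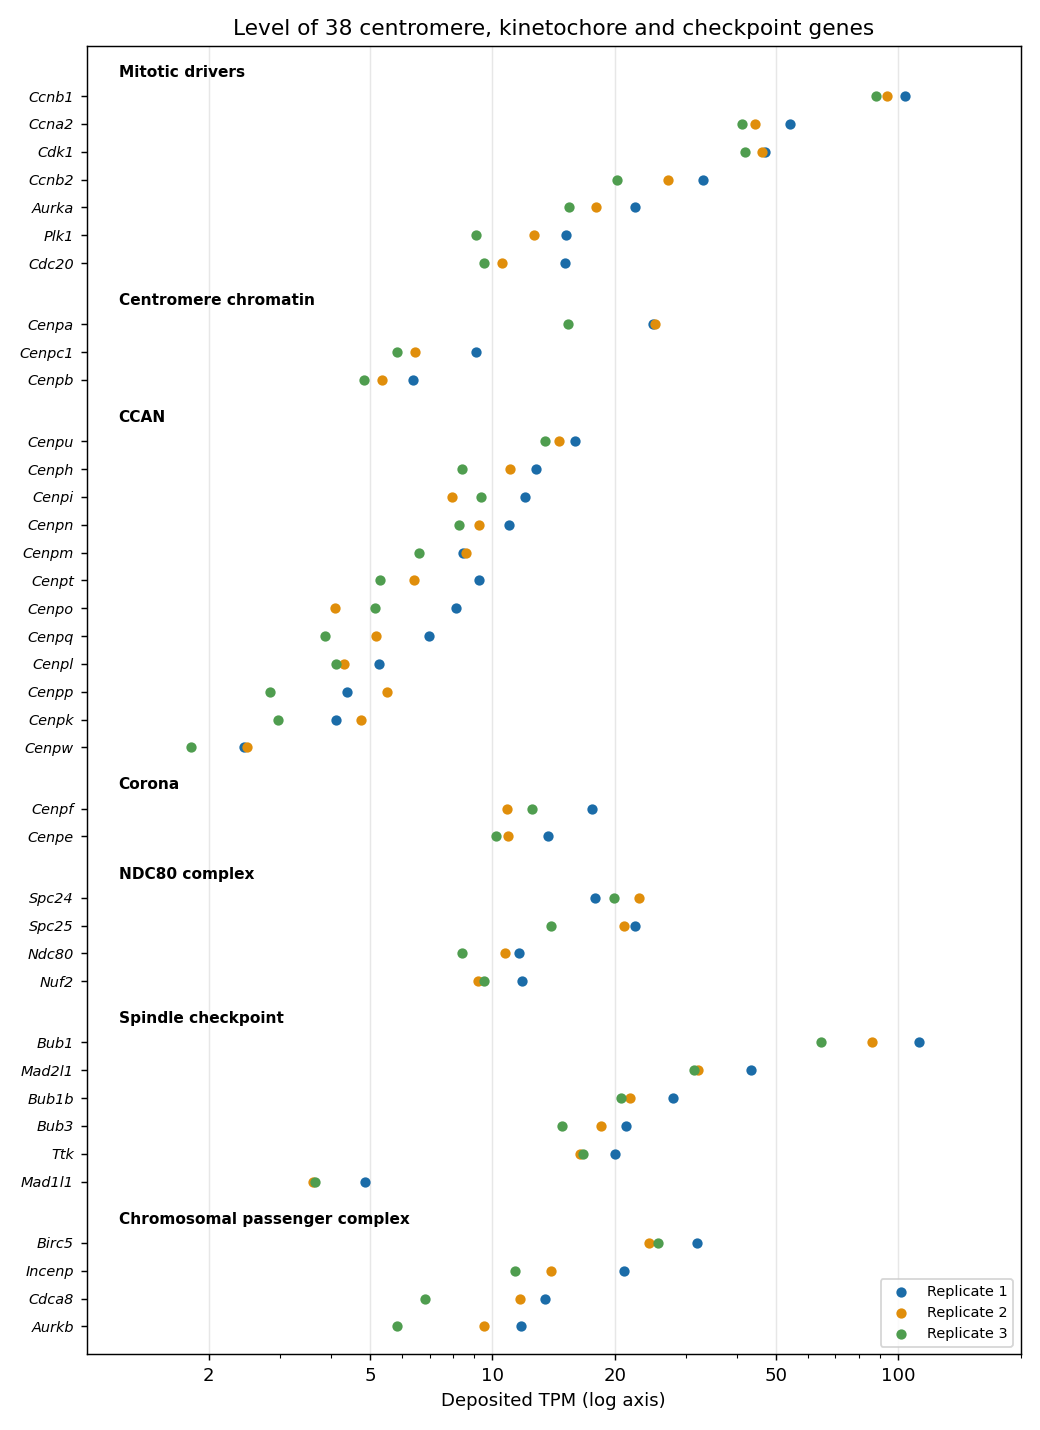
Deposited TPM (log axis) of the 38 genes in each of the 3 replicates, grouped by role and ordered by mean within a role. Ccnb1 and Bub1 lie highest and Cenpw lowest, and replicate 1 (blue) is the rightmost point for 32 of the 38 genes.

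The mitotic drivers are here the cyclin genes Ccnb1, Ccnb2 and Ccna2, the kinase genes Cdk1, Aurka and Plk1, and Cdc20. They had the highest median TPM of the roles under the deposited lengths, which are described further on. All 7 had a mean above 10 TPM, and their median was 33.0, 27.1 and 20.3 TPM in replicates 1, 2 and 3. Ccnb1, which encodes cyclin B1, the activator of Cdk1 at entry into mitosis, had 104, 93.9 and 87.9 TPM. The gene of the related cyclin B2, Ccnb2, had 33.0, 27.1 and 20.3 TPM. Ccnb1 therefore exceeded Ccnb2 in each library, by a ratio of 3.65 ± 0.61 (SD, n = 3). Ccna2, the gene of cyclin A2, which acts in S phase and G2, had 54.2, 44.3 and 41.1 TPM. Cdk1, the kinase both kinds of cyclin bind, had 47.1, 46.3 and 41.8 TPM. The ranges of Ccna2 and Cdk1 overlapped, and which was higher changed between libraries. Aurka, whose kinase acts at centrosomes and spindle poles, had 22.4, 18.0 and 15.5 TPM. Plk1, encoding Polo-like kinase 1, had 15.2, 12.6 and 9.10 TPM. Cdc20, whose product activates the anaphase-promoting complex and is the target of the checkpoint, was lowest of the role at 15.1, 10.6 and 9.53 TPM. The ranges of Plk1 and Cdc20 overlapped.

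The sequences upstream of several of these genes are shown because a short element, CCAAT, recurs in most of them. CCAAT is the box bound by NF-Y, and TTTGAA is a form of the cell cycle genes homology region (CHR), an element of genes expressed in G2 and M. RefSeq promoters of 300 bases (250 before the start and 50 after it, build GRCm38.p6) were matched for 34 of the 38 genes, all but Aurkb, Incenp, Ccna2 and Spc24. Each stretch below is 110 bases, 5′ to 3′ on the gene's strand, and ends before the start given by RefSeq or by GENCODE, whichever lies further upstream. Capitals mark CCAAT or its reverse complement ATTGG, and TTTGAA. Among the printed bases TTTGAA occurs only in Cdk1. In Ccnb2, Aurka and Spc25 it lies outside them, at positions 4, 32 and 24 from the RefSeq start, and in Ccnb2 also at -167.
Ccnb2 (chr9:70421555-70421664, minus strand): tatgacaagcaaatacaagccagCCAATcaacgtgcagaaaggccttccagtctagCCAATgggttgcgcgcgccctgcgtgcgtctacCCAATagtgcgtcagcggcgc
Cdk1 (chr10:69352939-69353048, minus strand): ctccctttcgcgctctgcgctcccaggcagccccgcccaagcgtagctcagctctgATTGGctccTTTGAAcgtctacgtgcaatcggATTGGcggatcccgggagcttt
Aurka (chr2:172370571-172370680, minus strand): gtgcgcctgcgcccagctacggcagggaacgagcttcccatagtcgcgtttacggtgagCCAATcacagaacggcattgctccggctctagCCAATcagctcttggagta
Spc25 (chr2:69206214-69206323, minus strand): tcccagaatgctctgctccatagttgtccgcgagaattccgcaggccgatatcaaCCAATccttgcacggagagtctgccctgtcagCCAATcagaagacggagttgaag
Cenpp (chr13:49652786-49652895, minus strand): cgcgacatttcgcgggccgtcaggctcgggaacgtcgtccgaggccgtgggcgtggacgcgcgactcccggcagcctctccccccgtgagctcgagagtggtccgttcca

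In the first 4 stretches the CCAAT boxes come in pairs on the same strand, and Cenpp, a CCAN gene near the low end of the levels, is shown as a stretch with neither element. The starts of paired boxes lay 32 bases apart in Cdk1, Aurka, Spc25 and Ccnb1, 33 in Ccnb2, which has 3 boxes in a row, and 34 in Cdca8. A pair on the same strand with starts 30 to 35 bases apart, a window chosen after the sites were seen, was found in 6 of the 34 matched genes, in 1.19% of all 32851 promoters and in 2.89% of matched expressed protein-coding genes. Of the 6, 4 were among the 6 matched mitotic drivers (Aurka, Ccnb1, Ccnb2 and Cdk1), and none among the 12 CCAN genes. A single CCAAT on either strand was held by 25 of the 34 genes, by 37.4% of promoters and by 44.9% of expressed protein-coding genes. TTTGAA on either strand was held by 16 of the 34, by 17.9% of promoters and by 14.2% of expressed protein-coding genes. The palindromic form TTCGAA was held by Bub1, Bub1b and Cenpm, and by 1.56% of promoters. Some genes have several promoter entries, and a gene was counted when any of them held the element. The 6 genes with a CCAAT pair had a median of 23.0 TPM and the other 28 matched genes 10.2 TPM. Because 4 of the 6 are mitotic drivers, the role with the highest median under the deposited lengths, pair and role cannot be told apart here. The values also depend on length: Cdk1 falls from 45.1 to 11.3 TPM with the principal transcript length described further on. These are matches of letters in a fixed window, and the files hold no measure of what binds there.

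Among the genes of centromere chromatin, Cenpa stood apart from the other 2. Cenpa (chromosome 5, 30666777 to 30674830), the gene of the centromeric histone, had 24.9, 25.1 and 15.3 TPM. Cenpc1, whose product binds CENP-A nucleosomes and recruits the rest of the kinetochore, had 9.12, 6.43 and 5.82 TPM. Cenpb, which binds a sequence box in centromeric satellite DNA, had 6.37, 5.34 and 4.83 TPM. In each library Cenpa was above both, at 3.09 ± 0.71 times Cenpc1 (SD, n = 3), and the ranges of Cenpc1 and Cenpb overlapped.

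The CCAN genes had the lowest median TPM of the roles. It was 8.30, 5.96 and 5.21 TPM in replicates 1, 2 and 3, against 9.12, 6.43 and 5.82 TPM for the 3 centromere chromatin genes. Of the 12 CCAN genes, 2 passed a mean of 10 TPM. Within the network the proteins form subcomplexes, and some genes of the same subcomplex lay apart while others overlapped. Cenpu, of the subcomplex with Cenpo, Cenpp and Cenpq, was the highest of the role at 16.0, 14.6 and 13.4 TPM. Its partner Cenpq had 6.96, 5.16 and 3.86 TPM, so that the ratio of Cenpu to Cenpq was 2.87 ± 0.60 (SD, n = 3), or 1.49 ± 0.31 with the principal transcript lengths described further on. Cenpp had 4.38, 5.51 and 2.83 TPM and Cenpo 8.13, 4.09 and 5.13 TPM, and these ranges overlapped each other and that of Cenpq. In the subcomplex of Cenph, Cenpi, Cenpk and Cenpm, Cenph had 12.8, 11.1 and 8.40 TPM and Cenpk 4.11, 4.75 and 2.97 TPM. By mean, Cenpi and Cenpm were between, at 9.80 ± 2.07 and 7.90 ± 1.12 TPM (SD, n = 3). The ranges of Cenph, Cenpi and Cenpm overlapped, and in replicate 3 Cenpi was above Cenph at 9.38 TPM. Cenpn and Cenpl, which encode partners that contact CENP-A nucleosomes, kept an even ratio of 2.09, 2.16 and 2.01 over the libraries. Cenpt and Cenpw, whose proteins pair through histone folds, differed in each library: Cenpt had 9.25, 6.40 and 5.28 TPM and Cenpw 2.44, 2.49 and 1.81 TPM.

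Median log2(TPM + 1) of the mitotic drivers exceeded that of the CCAN genes by 1.87, 2.02 and 1.78 in replicates 1, 2 and 3, a mean of 1.89 ± 0.12 (SD, n = 3). The difference had the same direction in 3 of 3 libraries and was many times its spread over them. No test was run, since genes are not replicates.

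The NDC80 complex has 4 subunits in equal numbers in the protein complex. Their RNA levels fell into pairs under the deposited lengths. Ndc80 had 11.6, 10.8 and 8.43 TPM and Nuf2 11.8, 9.21 and 9.51 TPM. These 2 genes encode the arm that binds the microtubule, and their ratio was 1.01 ± 0.14 (SD, n = 3). Spc25 had 22.4, 21.1 and 14.0 TPM and Spc24 17.9, 23.0 and 19.9 TPM. This pair encodes the end that faces the centromere, and the order of the 2 changed between libraries. Spc25 was above Ndc80 in each library, with a ratio of 1.85 ± 0.17 (SD, n = 3). The corona genes Cenpe, a kinesin that moves chromosomes along microtubules, and Cenpf, a large coiled-coil protein, had 11.6 ± 1.8 and 13.6 ± 3.5 TPM (SD, n = 3), and their ranges overlapped.

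The spindle checkpoint genes were spread most widely. Bub1, which encodes a kinase that recruits other checkpoint proteins to the kinetochore, had 113, 86.3 and 64.6 TPM. Mad2l1, the gene of the inhibitor MAD2 that captures CDC20, had 43.4, 32.0 and 31.4 TPM. Bub1b, encoding BUBR1 of the same inhibitory complex, had 27.9, 21.8 and 20.7 TPM. All 3 lay above Mad1l1 in each library, the gene of the kinetochore anchor of MAD2, at 4.84, 3.61 and 3.66 TPM. Mad2l1 exceeded Mad1l1 by a ratio of 8.97, 8.87 and 8.58. Bub3, an adaptor that binds both BUB1 and BUBR1, and Ttk, which encodes the kinase MPS1 at the head of the checkpoint, had 18.2 ± 3.3 and 17.7 ± 2.0 TPM (SD, n = 3). The ranges of Bub3 and Ttk overlapped.

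The chromosomal passenger complex corrects faulty attachments through the kinase Aurora B. Its kinase gene, Aurkb, had 11.8, 9.55 and 5.83 TPM. Cdca8, which encodes the subunit borealin, had 13.5, 11.7 and 6.83 TPM and was above Aurkb in each library by a ratio of 1.18 ± 0.04 (SD, n = 3). Incenp, the scaffold, had 21.1, 14.0 and 11.4 TPM. Birc5, the gene of survivin, had 31.9, 24.4 and 25.5 TPM. Birc5 lay above the other 3 in each library, at 3.21 ± 1.01 times Aurkb (SD, n = 3), or 5.30 ± 1.55 times with principal transcript lengths. In TPM, replicate 3 was the lowest library for Aurkb, Cdca8 and Incenp and replicate 2 for Birc5. Over the protein-coding genes tested, replicate 3 was lowest for 78% and replicate 2 for 17.8%.

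A level per length depends on the length. The deposited length of a gene is averaged over its isoforms by their estimated use, and for 9 genes it was shorter than every annotated coding transcript. For Bub1 (chromosome 2, 127801122 to 127831865) it averaged 1625 nt, while the coding transcript has 3421 nt and the other 4 annotated transcripts are noncoding and shorter. Levels were therefore recomputed with the length of the principal transcript (the longest that carries the APPRIS principal tag), an alternative chosen after seeing the data. Of the 38 genes, 9 moved by over 1.5 times, all of them downwards. Taking the longest tagged transcript makes a downward move more likely, so this direction is partly set by the choice of length. The 9 genes that moved are not the 9 whose deposited length was shorter than every coding transcript: only Bub1 is in both sets. Mad2l1 moved from 35.6 ± 6.8 to 8.52 ± 1.67 TPM and Cdk1 from 45.1 ± 2.8 to 11.3 ± 1.4 TPM (SD, n = 3), because their principal transcripts have 7557 and 4375 nt. Both also have shorter coding transcripts, of 1725 nt for Mad2l1 and, among others, 1253 nt for Cdk1. Their deposited lengths averaged 1913 and 1201 nt. Bub1 moved from 87.8 ± 24.1 to 39.4 ± 9.1 TPM (SD, n = 3) and stayed in rank 2 behind Ccnb1. Spc24 moved from 20.3 ± 2.6 to 10.9 ± 1.4 TPM (SD, n = 3), which took its ratio to Ndc80 from 2.01 ± 0.42 to 1.06 ± 0.03 and its ratio to Spc25 from 1.10 ± 0.31 to 0.55 ± 0.06 (SD, n = 3). The others were Cenpu, Cenpo, Incenp, Cenpf and Cenpi, and Cenpu, at 5.46 ± 0.65 TPM (SD, n = 3), was then no longer the highest CCAN gene. Ratios between these genes and others are given subject to this choice. Ccna2 and Cdk1, which overlapped under the deposited lengths, came apart at a ratio of 3.10 ± 0.20, and the ratio of Mad2l1 to Mad1l1 became 2.72 ± 0.13 (SD, n = 3). The lead of the mitotic drivers over the checkpoint role narrowed. With principal transcript lengths the middle driver gene was Aurka, at 17.9 ± 3.4 TPM (SD, n = 3). The middle checkpoint genes were Bub3 and Ttk, at 17.5 ± 3.6 and 16.4 ± 2.3 TPM (SD, n = 3).

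**Figure D2:**
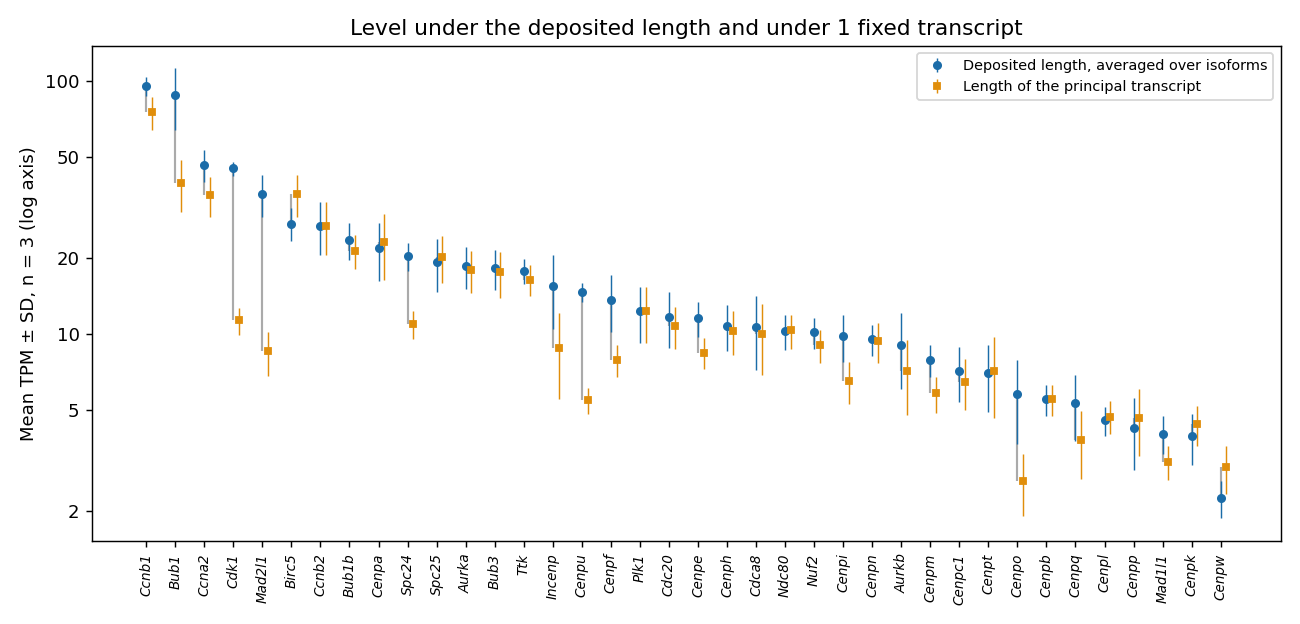
Mean TPM ± SD (n = 3, log axis) of each of the 38 genes under the deposited length averaged over isoforms (circles) and under the length of the principal transcript (squares). The longest grey lines are those of Mad2l1, Cdk1, Cenpu, Bub1 and Cenpo, while Ccnb1 is highest under both.

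The 3 libraries ranked the genes alike. Of the 703 pairs of genes, 628 (89.3%) had the same order of TPM in all 3 replicates. Close neighbours were not resolved: of the 37 neighbouring pairs in the order of mean TPM, 2 had ranges that did not overlap (Bub1 above Ccna2, and Cenpk above Cenpw). Replicate 1 had the highest TPM for 32 of the 38 genes, against 84.1% of the protein-coding genes tested, and replicate 3 the lowest for 30, against 78% of them. The order of the replicates in TPM is thus close to that of the background. TPM differences between libraries include a shift of all genes: expressed protein-coding genes differed by a median of -0.62 (log2) between replicates 3 and 1, and the 38 genes by -0.47. Genes of effective length under 100 nt, mostly small noncoding RNAs, held 63.3% ± 2.8 (SD, n = 3) of TPM. With these short genes removed from TPM, the median difference of replicate 3 from replicate 1 remained below 0. It was -0.48 (log2) over expressed protein-coding genes and -0.33 over the 38 genes.

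Spread between replicates was therefore measured on CPM (counts scaled to a common library total) adjusted by TMM, a normalization that removes such shifts. The replicates may be technical or biological, since the labels do not say that they came from separate cultures, and the p-values measure the spread between these samples. None of the 38 genes varied more than genes of like abundance do, by edgeR's test of goodness of fit at a p under 0.05 after Benjamini-Hochberg adjustment over all genes, where 1.84% of the 12577 genes tested did. At an unadjusted p under 0.05 the number was again 0 of 38, against 6.96% of genes tested. A gene that does not pass this test is not thereby shown to be even. The same counts were found with DESeq2 size factors in place of TMM. The smallest unadjusted p of the 38 was 0.266 by edgeR, for Cenpp (adjusted p = 1). Without replicate 3 the unadjusted p of Cenpp was 0.0449, and no adjusted p passed. Cenpp had 11.3, 16.6 and 11.4 TMM-scaled CPM, a coefficient of variation of 23.1%, with replicate 2 the highest. Bub1 was the most even of the genes, at 359.8, 367.6 and 355.0 and a coefficient of variation of 1.76%. The median coefficient of variation was 9.23% over the 38 genes, 12.0% over protein-coding genes tested and 10.4% over those whose mean lay within the range of the 38.

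On the same scale replicate 3 was the highest library for 23 of the 38 genes, against 40% of protein-coding genes tested, and replicate 1 the lowest for 20, against 33.4%. The median difference of replicate 3 from replicate 1 was 0.15 (log2) over the 38 genes and 0.01 over expressed protein-coding genes. Replicate 3 was the lowest library for 9 genes, against 41.4%: Aurkb, Incenp, Cenpa, Cdca8, Cenpq, Cenpt, Bub1, Plk1 and Ccnb2. Aurkb had 36.0, 42.0 and 28.9 TMM-scaled CPM and Incenp 85.2, 76.0 and 61.8. Spearman's rho between length and a gene's deviation from its own mean was 0.0968, -0.401 and 0.354 across the 38 genes in replicates 1, 2 and 3. Across 11221 protein-coding genes it was 0.387, 0.166 and -0.389, so that the signs matched in replicate 1 and were opposite in the other 2. These values describe 3 libraries, in which the deviations of a gene sum to 0 and genes share depth. The part of library composition in the difference was not tested.

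**Figure D3:**
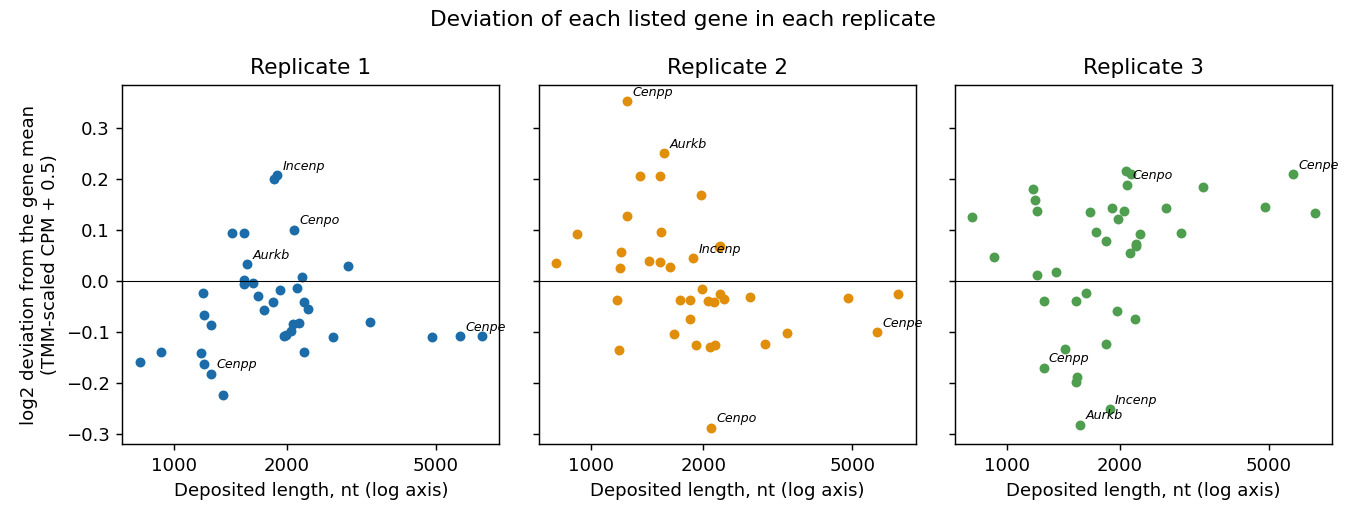
Deviation of each of the 38 genes from its own mean over the replicates (log2 of TMM-scaled CPM + 0.5) against deposited length (log axis), 1 panel per replicate. In replicate 3 the longer genes, among them Cenpe, lie above 0, while Aurkb and Incenp lie lowest.

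The other genes of the pathway, from a list of 54, were expressed as widely. All 54 had a mean of at least 1 TPM, and 45 reached 5 TPM. Their median log2(TPM + 1) was 3.56 ± 0.27 (SD, n = 3). The highest were Ube2s and Ube2c, which encode ubiquitin-conjugating enzymes of the anaphase-promoting complex, and its subunit gene Anapc5. Ube2s had 139, 103.7 and 76.4 TPM, Anapc5 69.9, 55.4 and 54.3 TPM and Ube2c 61.0, 43.0 and 33.5 TPM. The range of Ube2s lay above that of Ccna2, and that of Ube2c overlapped it. The range of Anapc5 lay just above it, with a lowest value of 54.27 TPM against a highest of 54.23 TPM for Ccna2. The lowest were Ska1, part of a complex that couples kinetochores to microtubules, Mad2l1bp, whose product binds MAD2, and Nsl1 of the MIS12 complex. Their means were 1.80 ± 0.26, 1.81 ± 0.38 and 2.95 ± 0.88 TPM (SD, n = 3). None of the 54 varied between replicates beyond genes of like abundance at an adjusted p under 0.05 by edgeR, against 1.84% of genes tested. At an unadjusted p under 0.05 the number was 2 of 54, against 6.96% of genes tested.

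Genes of other cell cycle steps were set beside them. The 21 replication licensing genes, which load and start the DNA helicase, had a median log2(TPM + 1) of 4.39 ± 0.42 (SD, n = 3), with Mcm5, Mcm7 and Mcm2 highest at 53.3 ± 4.7, 48.5 ± 6.2 and 47.2 ± 7.3 TPM (SD, n = 3). The 14 genes of G1 cyclins, their kinases and the RB family had 2.80 ± 0.30 (SD, n = 3). Cdk4 was the highest of them at 176, 142 and 141 TPM, above Ccnb1 in each library, and the D-type cyclin gene Ccnd2 was the lowest at 0.310, 0.580 and 0.150 TPM. In each replicate the median of the 38 genes lay between those of the licensing and the G1 lists. The lists differ in size and makeup, and no test of the difference between them was run.

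**Figure D4:**
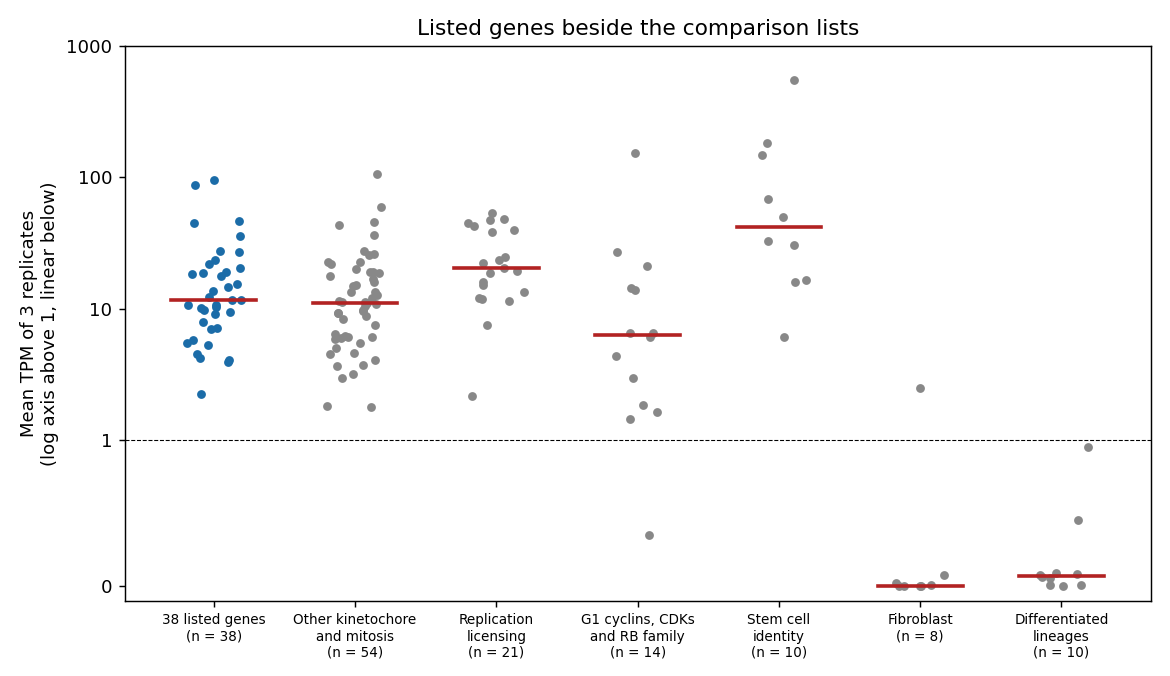
Mean TPM of the 3 replicates for each gene of the 38 (blue) and of 6 comparison lists (grey), with the list median as a red line; the axis is logarithmic above 1 and linear below. The 38 genes lie between 2.25 and 95.3 TPM, as do most other kinetochore and mitosis genes, while the genes of differentiated lineages all lie under the dashed line at 1.

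Some of the genes share exon sequence with a neighbour. The libraries were directional, but whether strand was used in the counting is not given in the sources used here. Exons of 8 of the 38 genes overlap exons of a gene on the other strand that had over 3 counts: Ccna2, Cdc20, Cdca8, Cenpk, Cenpo, Cenpp, Cenpq and Cenpu. The overlap was largest for Cenpu, where Primpol covers 26.7% of the exon sequence, and for Cenpo, where Adcy3 covers 19.0%. Primpol had 7.56, 5.71 and 3.64 TPM against 16.0, 14.6 and 13.4 for Cenpu. In estimated counts Primpol had 635, 350 and 222 against 468, 280 and 261 for Cenpu. It thus had more counts than Cenpu in replicates 1 and 2 and fewer in replicate 3. For 3 CCAN genes of low level the neighbour had more counts than the gene in each library. Ppwd1 had 764, 392 and 410 estimated counts against 136, 103 and 72 for Cenpk. Mut had 820, 532 and 507 against 243, 130 and 92 for Cenpq, and Ippk 341, 194 and 149 against 136, 111 and 61 for Cenpp. The shared exon sequence was 4.45% of Cenpk, 3.65% of Cenpq and 12.3% of Cenpp, and its part in these levels was not tested. Ccnb1 was the only member of the set with fractional estimated counts (tolerance 0.005), which RSEM gives where reads align to several genes. Its processed pseudogene Ccnb1-ps had 72.3, 35.5 and 32.4 estimated counts against 5540, 3278 and 2884 for Ccnb1.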

How the data were processed

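RNA-seq of E14 cells was deposited as 1 gene table per replicate. Per the submitters' processing notes the tools of the series include STAR and RSEM and the build is mm10; versions, the annotation release and the strand setting are not given in the sources used here. The deposited tables give, per the file headers, an expected count and a TPM for each gene, both estimated by the authors, and a length averaged over isoforms. Levels were described from the deposited TPM, on the log2(TPM + 1) scale for medians, and a gene was called expressed at a mean of at least 1 TPM. For edgeR 4.0.16 (R 4.3.3) each expected count was rounded to the nearest integer, and counts were scaled by TMM, filtered with its default filter on low counts, and tested for spread between replicates by goodness of fit against genes of like abundance, with Benjamini-Hochberg adjustment over all genes tested. The step was tested on simulated counts. DESeq2 1.42.0 supplied alternative size factors. Total estimated counts were 11420425, 6467405 and 5787357, and a floor of 3 counts equals 0.263, 0.464 and 0.518 CPM, for counting error only.

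Gene symbols, types, transcripts and coordinates came from GENCODE vM21 (GRCm38, the build mm10 names), and promoter sequences from RefSeq. All 38 genes could be named, and of each comparison list the 3 highest and the 3 lowest by mean TPM. The 38 genes and the lists were chosen with earlier results of these data known. With 1 group no comparison between conditions was made. Alternatives were another pseudocount, threshold, scaling, filter and length, and leaving out each replicate.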

Additional observations from a re-analysis of the deposited data

How the results depend on the processing

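For 4 results (the number of the 38 genes expressed, their median log2(TPM + 1), the difference between mitotic drivers and CCAN genes, and the number varying between replicates) 32 alternatives were run, of which 3 were chosen after seeing the data. None reversed, 27 stayed within the limits set and 5 moved. The median of 3.64 became 5.89 as log2(CPM + 1), 5.01 after removing genes of effective length under 100 nt from TPM, and 3.36 with principal transcript lengths. The difference of 1.89 became 2.03 with a pseudocount of 0.1 and 1.59 with principal transcript lengths. Leaving out each replicate in turn gave medians of 3.49 to 3.76 and differences of 1.83 to 1.94. A threshold of 5 TPM in place of 1 left 33 genes. No paired analysis was possible because the 3 replicates form 1 group. Depth limits Cenpw most, with 59 counts in replicate 3.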
